A study of Mus musculus with 16 samples.

Results

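The acetylcholine receptor genes described here are 8 of the 53679 genes in the deposited RNA-seq table: *Chrm1*, *Chrm2*, *Chrm3* and *Chrm4*, which encode muscarinic receptors, and *Chrna4*, *Chrna5*, *Chrna7* and *Chrnb2*, which encode subunits of nicotinic receptors. They were chosen by gene symbol, and the values of their 24 isoforms were summed per gene. Primary cortical neurons of wild-type (wt) mouse embryos at embryonic day 15 were pretreated on day in vitro (DIV) 8 with vehicle (VEH) or with 10 μM tianeptine (TIA), an atypical antidepressant. On DIV 9, 24 h later, the cells underwent sham treatment (CONTROL) or 3 h of oxygen-glucose deprivation (OGD), a culture model of ischemia, and RNA was taken after 6 h of reoxygenation. The 16 cultures form 4 groups of 4, CONTROL-VEH (cultures 1 to 4), CONTROL-TIA (5 to 8), OGD-VEH (9 to 12) and OGD-TIA (13 to 16). The sample titles name the groups VEH, whereas the treatment labels call the same cultures untreated. No strain was given in the sources used here. Levels are in FPKM, which divides the reads of an isoform by its length and by the depth of the library, so that levels of different genes can be set beside each other per length. The estimated depth was 19.7 to 25.2 M reads per culture, and 1 read on a transcript of 1 kilobase corresponded to 0.0397 to 0.0507 FPKM. The lowest estimate of reads behind a receptor gene in any culture was 49.6, for *Chrna5*, and 50.9 for *Chrm2*. OGD-VEH culture 12 and OGD-TIA culture 16 stood apart from the rest of their groups, with the lowest summed neuron markers and the highest summed astrocyte markers. Some results that rest on them are also given without 1 or both of them.

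Acetylcholine acts in the cortex through both receptor families. M1 and M3 receptors, encoded by *Chrm1* and *Chrm3*, couple to Gq and phospholipase C, whereas M2 and M4 receptors, encoded by *Chrm2* and *Chrm4*, couple to Gi and Go, lower adenylyl cyclase activity and open inwardly rectifying potassium channels. Nicotinic receptors are cation channels made of several subunits. The most common nicotinic receptor of the forebrain combines α4 and β2, the α5 subunit (*Chrna5*) joins it as an accessory subunit, and α7 subunits (*Chrna7*) form a separate, calcium-permeable receptor without β subunits. Cholinergic axons of the cortex come largely from the basal forebrain, which is not part of a cortical culture.

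The 8 genes had the following order of FPKM in CONTROL-VEH. *Chrna4* was highest at 21.9 ± 5.32 FPKM (mean ± SD, n = 4), followed by *Chrnb2* at 14.2 ± 1.59, *Chrm1* at 8.29 ± 1.47 and *Chrna7* at 6.18 ± 0.879 FPKM. *Chrm3* was at 4.26 ± 0.600, *Chrm4* at 4.05 ± 0.743, *Chrna5* at 2.28 ± 0.485 and *Chrm2* at 0.758 ± 0.129 FPKM. The ranges of neighbours in this order overlapped for *Chrm1* and *Chrna7* and for *Chrm3* and *Chrm4*, and the other neighbours were separate. The first place of *Chrna4* depends on short isoforms in its sum. Its 4565-nt isoform alone averaged 10.9 ± 0.902 FPKM in CONTROL-VEH, below the summed *Chrnb2*. Isoforms of 519 and 363 nt added 8.70 ± 2.61 and 1.55 ± 3.10 FPKM. In OGD-VEH *Chrm1* and *Chrna7* exchanged places: *Chrna7* had 7.27 ± 0.686 FPKM and *Chrm1* 3.32 ± 1.89 FPKM, with separate ranges (*Chrna7* from 6.31 to 7.95, *Chrm1* from 1.76 to 6.02). In OGD-TIA these 2 genes overlapped again, at 5.81 ± 1.76 FPKM for *Chrm1* and 5.24 ± 0.590 FPKM for *Chrna7*. These orders are descriptions of levels and were not tested.

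The promoters of *Chrm2*, *Chrna4* and *Chrna7* are shown because the results below turn on these genes and differ between them: over both arms *Chrm2* and, weighted by isoform length, *Chrna4* were lower after OGD, and *Chrna7* was not. The sequences are the 250 bases before the RefSeq start site (GRCm38.p6), 5′ to 3′ on the strand of the gene, and *Chrm1* is not among the 7 receptor genes with an entry. Capitals mark matches on either strand to a GC box (GGGCGG) or an EGR1 motif (GCGNGGGCG).
Chrm2, chr6:36387834-36388083, plus strand: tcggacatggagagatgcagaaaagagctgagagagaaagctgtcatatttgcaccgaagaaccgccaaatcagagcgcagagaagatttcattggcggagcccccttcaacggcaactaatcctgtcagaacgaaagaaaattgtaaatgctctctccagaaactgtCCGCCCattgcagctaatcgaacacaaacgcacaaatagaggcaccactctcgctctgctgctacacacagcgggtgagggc
Chrna4, chr2:181039178-181039427, minus strand: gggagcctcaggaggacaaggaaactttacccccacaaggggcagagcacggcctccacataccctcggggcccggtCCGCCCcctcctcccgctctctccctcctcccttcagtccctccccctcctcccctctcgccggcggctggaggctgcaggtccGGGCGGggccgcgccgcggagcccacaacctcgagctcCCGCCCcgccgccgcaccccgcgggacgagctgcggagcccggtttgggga
Chrna7, chr7:63212527-63212776, minus strand: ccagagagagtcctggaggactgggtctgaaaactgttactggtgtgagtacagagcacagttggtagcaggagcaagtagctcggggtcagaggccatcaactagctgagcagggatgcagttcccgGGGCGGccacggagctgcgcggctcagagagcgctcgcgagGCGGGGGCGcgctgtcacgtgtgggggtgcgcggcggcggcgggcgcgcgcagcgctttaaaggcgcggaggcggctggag
The motifs were searched over windows of 300 bases that also include the 50 bases after the start. A GC box stood in 35.7% of 32851 such windows and an EGR1 motif in 5.55%. *Chrna4* had 3 GC boxes, at -173, -89 and -51 from the start, *Chrm2* had 1 at -82, and *Chrna7* had 1 at -122 and an EGR1 match at -81 that does not overlap it. GC content was 52.7% for *Chrm2*, 74.3% for *Chrna4* and 70.0% for *Chrna7*. None of the 8 windows of the 7 receptor genes held an AP-1 motif (TGANTCA, 7.81% of windows), a CRE (TGACGTCA, 1.79%), or the left or right part of the RE1 motif (TTCAGCACC, 0.371%, and GGACAGCGC, 0.405%). These matches are letters in a window and do not show that a factor binds there.

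**Figure D1:**
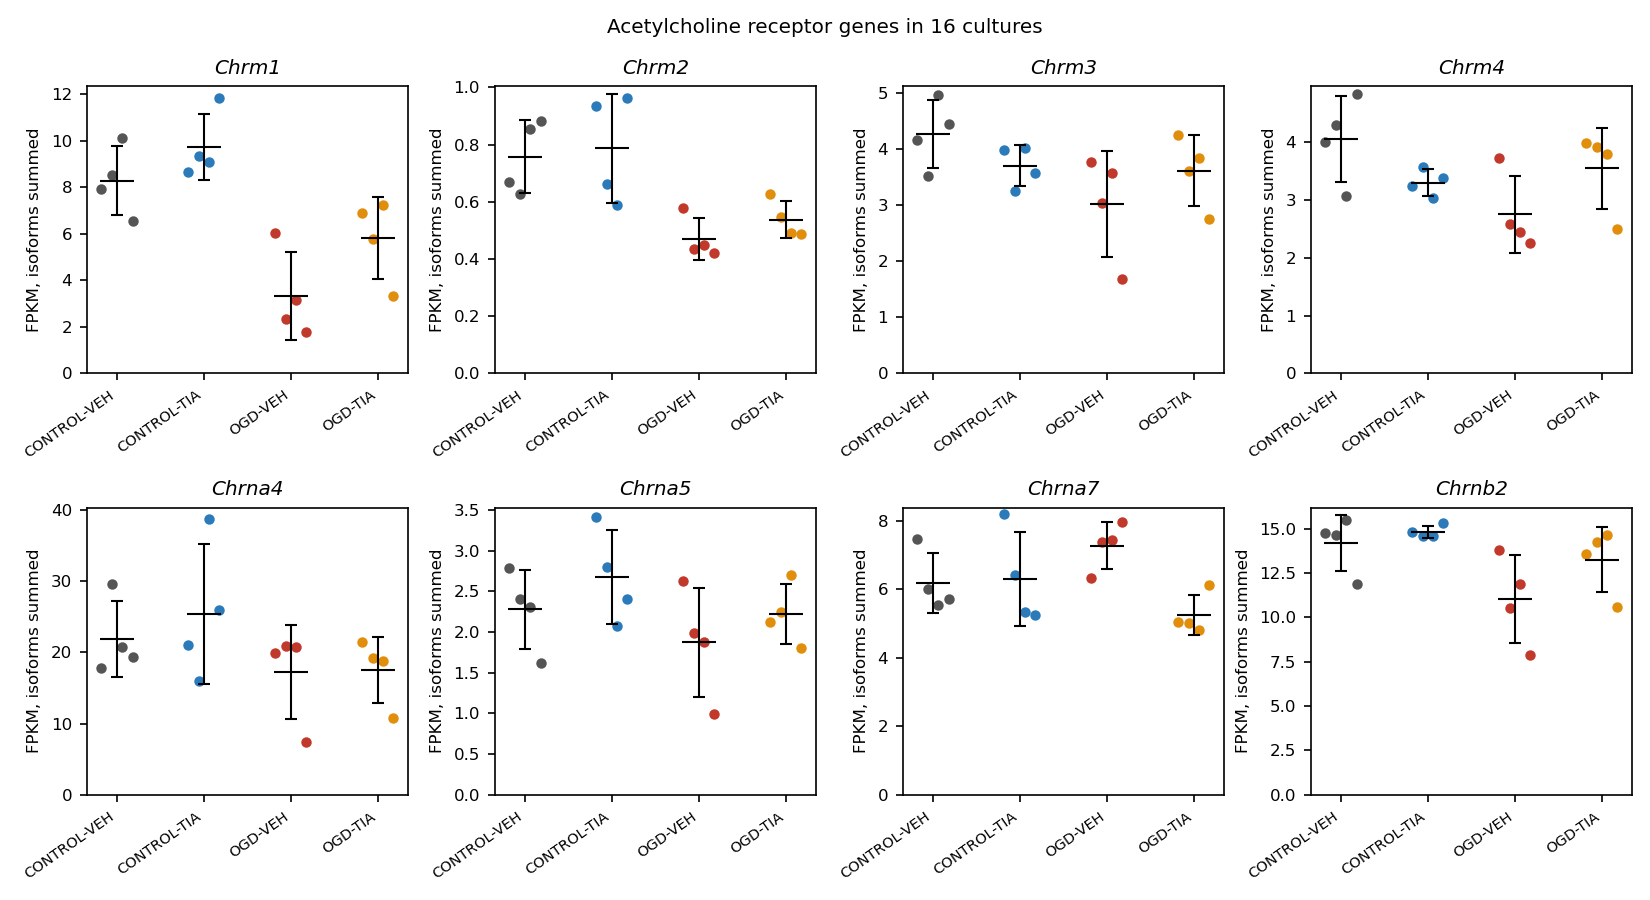
FPKM of the 8 receptor genes (vertical axes, linear, from 0) in each of the 16 cultures. Points are cultures in order of their number within a group, and black lines are the mean and SD of 4 cultures. *Chrm1* is lower in all 4 OGD-VEH than in all 4 CONTROL-VEH cultures, and *Chrna7* is lower in all 4 OGD-TIA than in all 4 OGD-VEH cultures.

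The question of the design is how OGD changes these transcripts and whether the change differs with TIA. Without TIA (OGD-VEH versus CONTROL-VEH), 7 of the 8 receptor genes had a negative log2 fold change, and *Chrm1* alone was called as a DEG, a differentially expressed gene, which needs an adjusted p (padj) no higher than 0.05 together with a log2 change of 1 or more in size. Of 16346 genes tested, 41.8% had a negative log2 fold change and 1.68% were called lower in the same comparison. The median log2 fold change was -0.48 for the 8 genes, with a range from -1.43 to 0.24, and 0.10 for all genes tested. Under OGD with TIA, 7 of 8 log2 fold changes were again negative (44.2% of all genes), with a median of -0.25 (all genes, 0.04). No receptor gene was called, and 0% of 16242 genes were called in either direction, although 3174 had an unadjusted p under 0.05. With DESeq2 and the same limits, the paper reported DEGs in both of these OGD comparisons, fewer with TIA than without. The absence of calls with TIA therefore holds for the test used here. An unadjusted p under 0.05 with a negative log2 fold change was seen for 2 receptor genes without TIA (14.9% of all genes) and for 1 with TIA (7.92% of all genes). Over both arms, with TIA as a second term in a fit to all 16 cultures, *Chrm1* was called (1.99% of 16313 genes called lower), *Chrm2* had a padj under 0.05 but a smaller change (13.4% of all genes had such a padj and were lower), and 3 receptor genes had an unadjusted p under 0.05 (18.1% of all genes, lower). The test was limma on log2(FPKM + 0.1), and all log2 fold changes below are on this scale, which understates the change of genes of low level.

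*Chrm1*, on chromosome 19 from 8663789 to 8683587 (plus strand, GRCm38), showed the largest fall of the 8 genes. It was at 7.94, 8.55, 10.1 and 6.57 FPKM in CONTROL-VEH and at 6.02, 2.32, 3.17 and 1.76 FPKM in OGD-VEH. All 4 OGD-VEH cultures lay below all 4 CONTROL-VEH cultures, and culture 9 was close to the lowest control. The summed FPKM of 10 neuron markers was also lower in all 4 OGD-VEH cultures (1258 to 3051) than in all 4 CONTROL-VEH cultures (3481 to 3973), and its part in the result was not tested. In bulk RNA, fewer neurons and less RNA per neuron cannot be told apart. The log2 fold change was -1.43 (standard error 0.35, 95% CI -2.22 to -0.64, padj = 0.0449 by limma). With TIA, *Chrm1* was at 8.66, 9.33, 9.10 and 11.8 FPKM in CONTROL-TIA and at 6.88, 5.79, 7.24 and 3.34 FPKM in OGD-TIA. These groups did not overlap either, and the log2 fold change was -0.78 (standard error 0.24, 95% CI -1.34 to -0.23, padj = 0.168 by limma). Over both arms it was -1.11 (standard error 0.23, padj = 0.00430 by limma). Leaving out 1 culture at a time ended the call between OGD-VEH and CONTROL-VEH in 7 of 8 fits (padj up to 0.123 by limma) and kept it only without OGD-VEH culture 9 (padj = 0.00380), with log2 fold changes from -1.76 to -1.19. Over both arms the padj of *Chrm1* was at most 0.0108 in all 16 such fits, and the log2 fold change fell short of -1 only without OGD-VEH culture 12, at -0.97.

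All 3 annotated *Chrm1* isoforms had a lower mean in OGD-VEH than in CONTROL-VEH. The isoform of 4159 nt, which held 56.7% of the gene's summed FPKM, had 5.24 ± 1.05 FPKM in CONTROL-VEH, 5.39 ± 0.562 in CONTROL-TIA, 1.80 ± 0.905 in OGD-VEH and 2.95 ± 1.26 in OGD-TIA. The isoform of 6271 nt had 2.35 ± 0.322, 3.02 ± 0.464, 1.42 ± 0.873 and 2.16 ± 0.604 FPKM in the same order. Both have a coding length of 1380 nt. The third, of 1054 nt, was at 0 in 3 cultures and held 10.4% of the sum.

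*Chrm2*, on chromosome 6 from 36388084 to 36528414, was the lowest of the 8 genes. It was at 0.668, 0.627, 0.855 and 0.882 FPKM in CONTROL-VEH and at 0.579, 0.435, 0.447 and 0.420 FPKM in OGD-VEH, again without overlap, so that 2 of the 8 genes were lower in every OGD-VEH culture (9.95% of all genes). The log2 fold change was -0.59 (standard error 0.27, padj = 0.164 by limma). In CONTROL-TIA it was at 0.934, 0.662, 0.588 and 0.962 FPKM and in OGD-TIA at 0.626, 0.546, 0.491 and 0.486 FPKM. Here 3 of 4 OGD-TIA cultures lay below the controls, and *Chrm1* was the 1 gene of 8 that did not overlap (6.72% of all genes). Over both arms *Chrm2* fell by 0.52 on the log2 scale (standard error 0.15, padj = 0.0184 by limma), without reaching the fold limit for a DEG. Its means in OGD-VEH and CONTROL-VEH lay on either side of the minimum of 0.5 FPKM that the average of a gene had to reach to be tested.

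*Chrm3*, on chromosome 13 from 9875486 to 10360847, was at 4.15, 3.51, 4.95 and 4.44 FPKM in CONTROL-VEH and at 3.77, 3.04, 3.57 and 1.69 FPKM in OGD-VEH. With TIA it was at 3.98, 3.24, 4.01 and 3.57 FPKM in CONTROL-TIA and at 4.24, 3.60, 3.84 and 2.75 FPKM in OGD-TIA. The groups overlapped in both arms, with log2 fold changes of -0.54 (padj = 0.179 by limma) and -0.05 (padj = 0.892 by limma), and OGD-VEH culture 12 and OGD-TIA culture 16 were the lowest of their groups. Leaving out culture 12 gave -0.29 without TIA (padj = 0.30 by limma), and leaving out culture 16 gave 0.074 with TIA (padj = 0.758 by limma). *Chrm4*, on chromosome 2 from 91927249 to 91928688, was at 4.00, 4.31, 3.07 and 4.84 FPKM in CONTROL-VEH and at 3.73, 2.58, 2.44 and 2.26 FPKM in OGD-VEH. In CONTROL-TIA it was at 3.24, 3.57, 3.03 and 3.38 FPKM and in OGD-TIA at 3.99, 3.93, 3.80 and 2.50 FPKM, so that 3 of 4 OGD-TIA cultures lay above every CONTROL-TIA culture and culture 16 below. Its log2 fold change was -0.55 without TIA (standard error 0.22, padj = 0.111 by limma) and 0.08 with TIA (padj = 0.813 by limma). The only *Chrm4* isoform in the table, of 1440 nt, is a single exon that holds no more than the coding sequence of 1437 nt and the stop codon, so reads from other parts of the transcript are not in its value.

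The summed FPKM of *Chrm1* to *Chrm4* was 17.4 ± 1.09 in CONTROL-VEH, 17.5 ± 1.48 in CONTROL-TIA, 9.56 ± 3.36 in OGD-VEH and 13.5 ± 3.06 in OGD-TIA. *Chrm1* made up 47.6% ± 6.02 of this sum in CONTROL-VEH (39.3 to 53.3%) and 33.0% ± 6.83 in OGD-VEH (27.7 to 42.7%). In CONTROL-TIA its share was 55.4% ± 3.50 (51.5 to 60.0%) and in OGD-TIA 42.4% ± 4.30 (36.8 to 47.1%). The ranges of the share overlapped between OGD and CONTROL without TIA and were separate with TIA, and no test was run on shares.

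*Chrna4*, on chromosome 2 from 181018380 to 181043546 (minus strand), encodes the α4 subunit. Its sums were 17.8, 29.7, 20.7 and 19.4 FPKM in CONTROL-VEH, 21, 15.9, 38.8 and 25.9 in CONTROL-TIA, 19.9, 20.9, 20.8 and 7.46 in OGD-VEH, and 21.5, 19.2, 18.8 and 10.8 in OGD-TIA. The groups overlapped in both arms, with log2 fold changes of -0.43 (standard error 0.35, padj = 0.404 by limma) and -0.50 (standard error 0.30, padj = 0.389 by limma). Without OGD-VEH culture 12 the first value was -0.064 (padj = 0.842 by limma). Short isoforms varied most. An isoform of 519 nt ranged from 0 to 12.7 FPKM and an isoform of 363 nt from 0 to 18.2 FPKM, and they held 32.8% and 16.8% of the gene's summed FPKM.

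The *Chrna4* isoform of the highest mean, of 4565 nt with a coding length of 1887 nt, was at 11.4, 11.8, 10.8 and 9.71 FPKM in CONTROL-VEH and at 8.20, 7.29, 7.10 and 6.44 FPKM in OGD-VEH. In CONTROL-TIA it was at 11.7, 12.2, 11.8 and 12.5 FPKM and in OGD-TIA at 9.02, 8.85, 9.32 and 7.71 FPKM. All 8 OGD cultures lay below all 8 CONTROL cultures, which held for 0.966% of 53200 isoforms averaging 0.5 FPKM or more. When isoforms were weighted by their length, so that a gene's value follows the reads on it, *Chrna4* fell by 0.58 on the log2 scale without TIA (standard error 0.13, padj = 0.0279 by limma) and by 0.52 over both arms (standard error 0.077, padj = 0.000469 by limma). With TIA alone the value was -0.46 (standard error 0.092, padj = 0.0509 by limma). The 4565-nt isoform tested by itself had a log2 fold change of -0.59 without TIA (padj = 0.0642 by limma) and -0.46 with TIA (padj = 0.149 by limma), and passed the padj limit over both arms, at -0.52 (padj = 0.00101 by limma). With weighting by length, 17.3% of all genes had a padj of at most 0.05 and were lower over both arms. Without TIA this held for 1575 of 16352 genes, against 564 of 16346 on summed FPKM. *Chrna4* was not called on summed FPKM, and passed the padj limit but not the fold limit for a DEG when weighted by length.

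**Figure D2:**
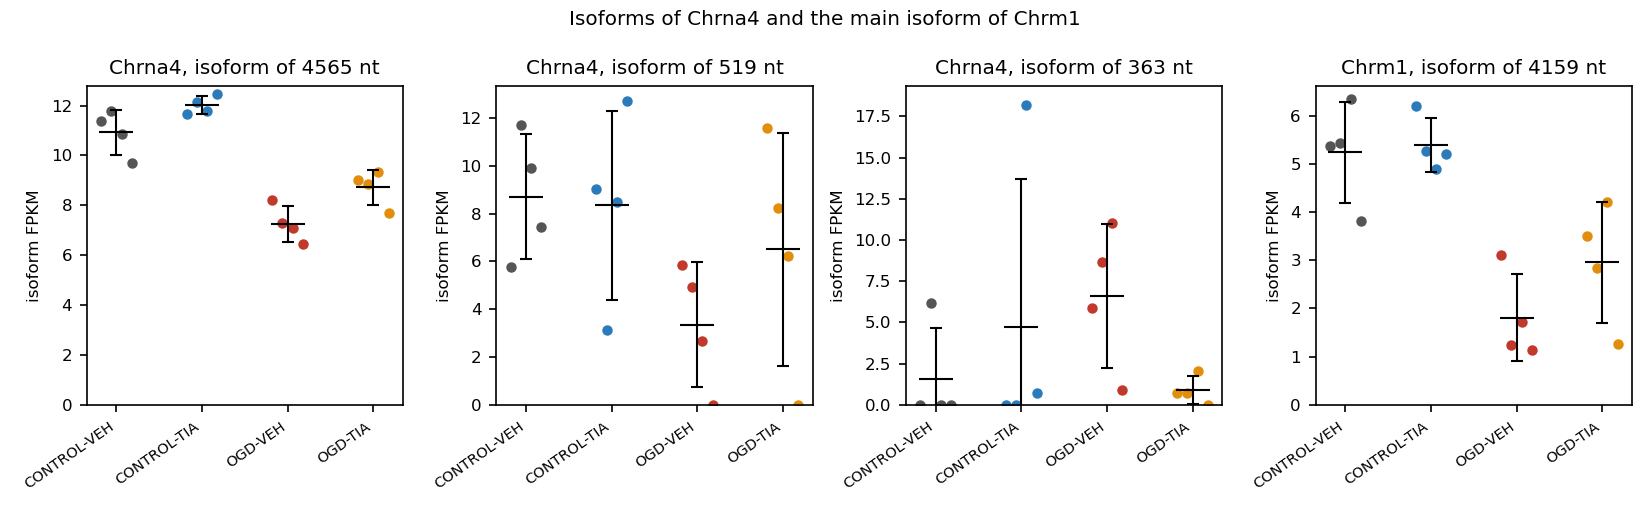
FPKM (vertical axes, linear, from 0) of 3 *Chrna4* isoforms and of the main *Chrm1* isoform in each culture, with the mean and SD of 4 cultures in black; the SD bar is not drawn below 0. The 4565-nt isoform of *Chrna4* separates all OGD from all CONTROL cultures, whereas the isoforms of 519 and 363 nt range down to 0 within groups.

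*Chrnb2*, on chromosome 3 from 89746195 to 89764632, encodes the β2 partner of α4. It was at 14.8, 14.7, 15.5 and 11.9 FPKM in CONTROL-VEH and at 13.8, 10.6, 11.9 and 7.89 FPKM in OGD-VEH. In CONTROL-TIA all 4 cultures lay between 14.6 and 15.3 FPKM, and OGD-TIA cultures were at 13.6, 14.3, 14.6 and 10.6 FPKM. The groups overlapped, with log2 fold changes of -0.38 (standard error 0.19, padj = 0.175 by limma) and -0.17 (standard error 0.12, padj = 0.437 by limma). Over both arms the value was -0.28 (standard error 0.11, padj = 0.0637 by limma), and with isoforms weighted by length it was -0.30 (padj = 0.0338 by limma). With this weighting, 17.3% of all genes were lower over both arms with a padj of at most 0.05. The sum of *Chrnb2* is split between an isoform of 6145 nt annotated as non-coding (55.4%) and a coding isoform of 6399 nt (42.6%), and the latter averaged 6.65 ± 2.31 FPKM in CONTROL-VEH against 4.11 ± 0.862 in OGD-VEH. Exons of *Adar* overlap *Chrnb2* on the opposite strand. Exons of the non-coding genes *Gm22820* and *9330158H04Rik* overlap *Chrm1* and *Chrm2* in the same way. Whether reads were assigned by strand was not given in the sources used here.

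*Chrna5*, on chromosome 9 from 54980880 to 55007779, was at 2.78, 2.40, 2.31 and 1.62 FPKM in CONTROL-VEH and at 2.63, 1.99, 1.88 and 0.998 FPKM in OGD-VEH. In CONTROL-TIA it was at 3.41, 2.80, 2.07 and 2.41 FPKM and in OGD-TIA at 2.13, 2.25, 2.70 and 1.81 FPKM. The groups overlapped in both arms, and the log2 fold changes were -0.32 (95% CI -1.02 to 0.38) and -0.25 (95% CI -0.69 to 0.19). Without OGD-VEH culture 12 the first value was -0.060 (padj = 0.89 by limma).

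*Chrna7*, on chromosome 7 from 63098692 to 63212569 (minus strand), was the receptor gene whose OGD-VEH mean lay above CONTROL-VEH. It was at 7.46, 6.02, 5.53 and 5.70 FPKM in CONTROL-VEH and at 6.31, 7.39, 7.44 and 7.95 FPKM in OGD-VEH. The groups overlapped, with a log2 fold change of 0.24 (standard error 0.15, 95% CI -0.10 to 0.57, padj = 0.276 by limma). With TIA it was at 8.21, 6.42, 5.32 and 5.26 FPKM in CONTROL-TIA and at 5.04, 5.00, 4.81 and 6.12 FPKM in OGD-TIA. There 3 of 4 OGD-TIA cultures lay below every CONTROL-TIA culture, and the log2 fold change was -0.24 (standard error 0.16, 95% CI -0.62 to 0.13, padj = 0.430 by limma). Its main isoform of 2078 nt held 97.9% of the sum.

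**Figure D3:**
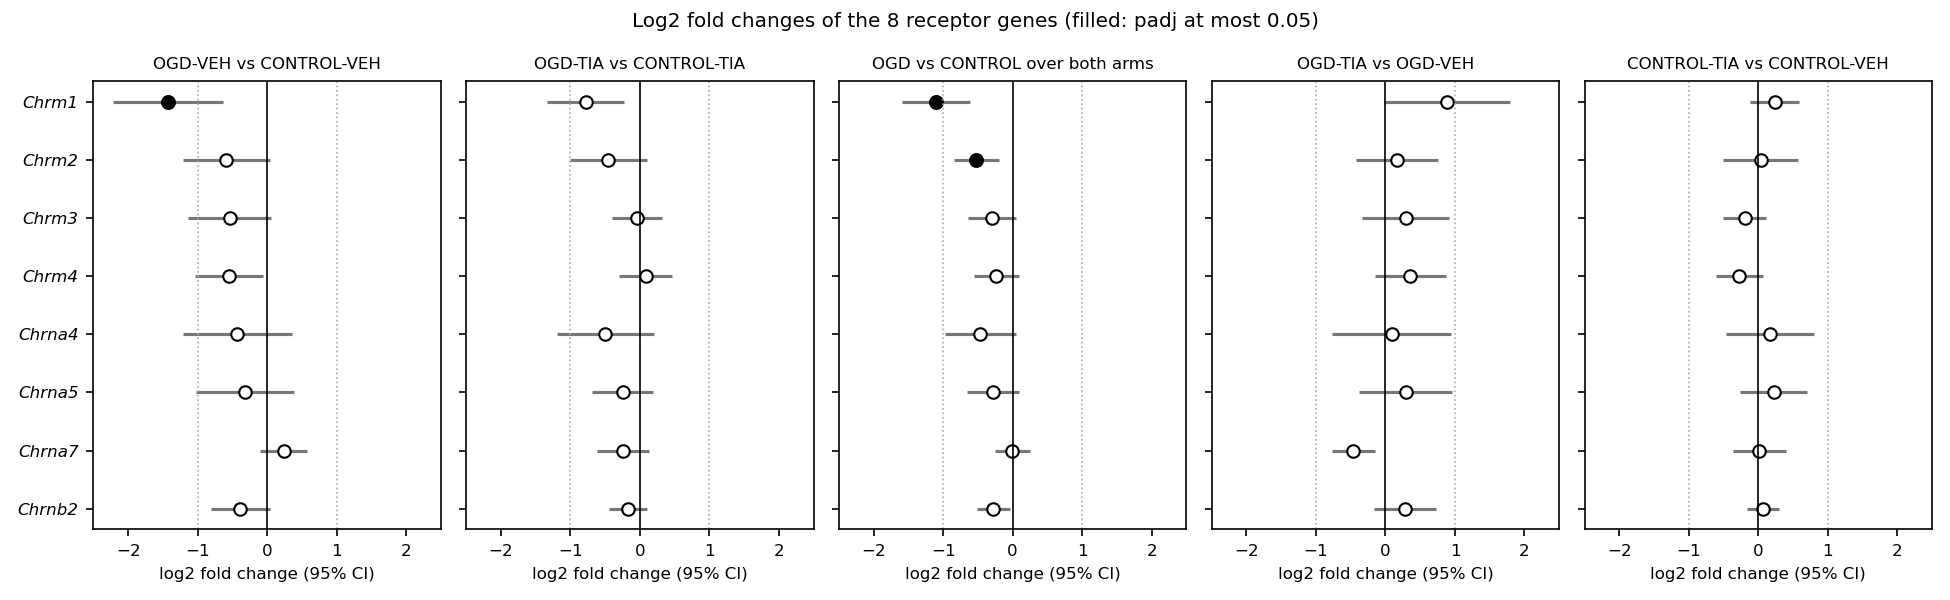
Log2 fold change of log2(FPKM + 0.1) (horizontal axes) with its 95% confidence interval from limma for the 8 receptor genes in 5 comparisons, each the first-named group minus the second. Filled points have a padj of at most 0.05 and dotted lines mark -1 and 1; *Chrm1* is filled without TIA and over both arms, and *Chrm2* over both arms.

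Between OGD-TIA and OGD-VEH, *Chrna7* was lower in every OGD-TIA culture (4.81 to 6.12 FPKM) than in every OGD-VEH culture (6.31 to 7.95 FPKM), as were 2.51% of all genes. Its log2 fold change was -0.47 (standard error 0.13, unadjusted p = 0.00822, padj = 0.550 by limma), and *Chrna7* was the 1 receptor gene of 8 with an unadjusted p under 0.05 (7.91% of all genes in either direction). The other 7 genes had positive log2 fold changes, from 0.09 for *Chrna4* to 0.88 for *Chrm1* (standard error 0.40, 95% CI -0.03 to 1.79, padj = 0.550 by limma). The 95% CI of each of these 7 included 0, and *Chrna4* was at -0.27 without OGD-VEH culture 12. Of all genes tested, 56.7% had a negative log2 fold change, and the median was -0.05. *Chrm1* was at 3.34 to 7.24 FPKM in OGD-TIA against 1.76 to 6.02 FPKM in OGD-VEH, which overlapped. No receptor gene was called, and 0% of 16351 genes were called in either direction (1293 had an unadjusted p under 0.05). Only when limma weighted cultures by their fit to the model (array quality weights) was *Chrm1* called (log2 fold change 1.11, padj = 0.0466) and did *Chrna7* have a padj under the limit (log2 fold change -0.54, padj = 0.0453 by limma). With these weights 0.893% of all genes were called higher and 5.93% were lower with a padj of at most 0.05.

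Without OGD, TIA changed no receptor gene detectably. Log2 fold changes of CONTROL-TIA against CONTROL-VEH ranged from -0.27 (*Chrm4*, 95% CI -0.61 to 0.07) to 0.23 (*Chrm1*, 95% CI -0.12 to 0.59), the padj from limma was 0.999 for all 8, and 0% of 16170 genes were called. No receptor gene had an unadjusted p under 0.05, against 3.84% of all genes (621 genes).

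The difference of the OGD effect with TIA from that without TIA was tested as an interaction over the 16 cultures. It was 0.65 for *Chrm1* (standard error 0.45, 95% CI -0.31 to 1.60, padj = 0.722 by limma), so a difference between the arms in *Chrm1* was not detected. *Chrm4* had the value 0.63 (standard error 0.27, unadjusted p = 0.0338) and *Chrna7* the value -0.48 (standard error 0.21, unadjusted p = 0.0405), both with padj = 0.722 by limma. An unadjusted p under 0.05 was therefore found for 2 of the 8 genes and for 6.06% of all genes in either direction (988 genes), and 0% of 16313 genes were called. The pairwise comparisons share control or OGD cultures, so their values are not independent.

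Other genes of cholinergic signalling were examined as 5 lists. Of 13 receptor genes that are not among the 8, only *Chrna3* and *Chrnb1* were high enough to be tested in the OGD comparisons, and the others had means of at most 0.375 FPKM over the 16 cultures. *Chrna3* averaged 0.995 ± 0.405 FPKM in CONTROL-VEH against 0.514 ± 0.111 in OGD-VEH (log2 fold change -0.75, padj = 0.199 by limma), and it fell by 0.65 on the log2 scale over both arms (padj = 0.0253 by limma). *Chrnb1* was at 0.415 ± 0.275 and 0.884 ± 0.400 FPKM (log2 fold change 0.96, padj = 0.172 by limma). It reached the minimum of 0.5 FPKM in this pair only through its OGD-VEH cultures, so these values are a description.

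Among genes for the synthesis, transport and breakdown of acetylcholine, the genes that define a cholinergic neuron were low. *Chat*, the synthesizing enzyme, did not exceed 0.184 FPKM, *Slc5a7*, the choline transporter of cholinergic terminals, 0.176 FPKM and *Slc18a3*, the vesicular transporter, 0.917 FPKM in any culture. *Ache*, the acetylcholinesterase, was expressed, at 14.7, 17.4, 23.0 and 8.53 FPKM in CONTROL-VEH and at 14.3, 4.89, 4.52 and 2.88 FPKM in OGD-VEH, where culture 9 overlapped the controls. With TIA it was at 12.2 to 38.4 FPKM in CONTROL-TIA and at 4.03 to 7.57 FPKM in OGD-TIA, and over both arms it fell by 1.49 on the log2 scale (standard error 0.32, padj = 0.00462 by limma). Neither arm passed alone, with padj = 0.0822 without TIA and padj = 0.121 with TIA by limma. *Bche*, the butyrylcholinesterase, averaged 1.28 ± 0.569 FPKM in OGD-VEH against 0.284 ± 0.0282 in CONTROL-VEH (log2 fold change 1.71, padj = 0.0455 by limma; 2.40% of all genes were called higher). It reached the minimum of 0.5 FPKM only through its OGD cultures, so its call is given as a description. *Acly*, which supplies acetyl-CoA, fell by 0.56 on the log2 scale in OGD-VEH (padj = 0.0485 by limma).

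Of 10 chaperones and Ly6 proteins of nicotinic receptors, 8 were tested. None was called after OGD without TIA (1.68% of all genes were called lower), where the median log2 fold change was -0.68, and over both arms 4 of the 8 were lower with a padj of at most 0.05 (13.4% of all genes). *Tmem35a*, the chaperone NACHO, went from 85.5 ± 5.97 FPKM in CONTROL-VEH to 54.1 ± 15.4 FPKM in OGD-VEH (log2 fold change -0.70, padj = 0.0541 by limma), and was at 71.9 ± 15.0 FPKM in OGD-TIA. *Lypd1*, a Ly6 protein that binds α4β2 receptors, went from 35.5 ± 4.17 to 19.6 ± 7.68 FPKM (log2 fold change -0.93, padj = 0.0582 by limma). *Lypd6* ranged from 6.87 to 42.7 FPKM within CONTROL-VEH and from 4.35 to 6.20 FPKM in OGD-VEH (padj = 0.0639 by limma).

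Of 26 G proteins and effectors of muscarinic receptors, 24 were tested, with a median log2 fold change of -0.54 in OGD-VEH against CONTROL-VEH. The single gene called, *Itpr1*, the calcium release channel of the endoplasmic reticulum, had a log2 fold change of -1.51 (padj = 0.0444 by limma; 1.68% of all genes were called lower) and is named after its value was seen. *Gnaq*, the α subunit of Gq, fell from 101.7 ± 5.10 to 68.3 ± 3.78 FPKM (padj = 0.0319 by limma), *Gnao1*, the α subunit of Go, from 907 ± 97.2 to 529 ± 96.4 FPKM (padj = 0.0336 by limma), and *Grk3*, a receptor kinase, from 25.1 ± 3.02 to 13.4 ± 3.01 FPKM (padj = 0.0340 by limma). Over both arms 13 of the 24 were lower and 2 higher with a padj of at most 0.05 (13.4% of all genes were lower and 18.7% higher at this limit). Among channel genes under muscarinic control, *Kcnj9* and *Kcnj6*, subunits of inwardly rectifying potassium channels, were called lower after OGD without TIA. *Kcnj9* fell to 2.20 ± 1.05 FPKM from 4.87 ± 0.568 (padj = 0.0447 by limma), and *Kcnj6* fell to 1.06 ± 0.426 FPKM from 2.47 ± 0.364 (padj = 0.0479 by limma). Between OGD-TIA and CONTROL-TIA no gene of the 5 lists was called, as 0% of 16242 genes were called in either direction.

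Summed markers of cell types are set beside these values. The summed FPKM of 10 neuron markers, all of them tested, was 3481 to 3973 in CONTROL-VEH, 3456 to 3654 in CONTROL-TIA, 1258 to 3051 in OGD-VEH and 1844 to 3382 in OGD-TIA. The lowest sums were in OGD-VEH culture 12 (1258) and OGD-TIA culture 16 (1844), which were also the lowest cultures of their groups for 7 of the 8 receptor genes and the highest for *Chrna7*. OGD-VEH culture 9 had the highest sum of its group (3051) and the highest *Chrm1* value (6.02 FPKM). The summed level of 7 astrocyte markers was 466 to 734 in CONTROL-VEH, 399 to 477 in CONTROL-TIA, 635 to 1672 in OGD-VEH and 482 to 1217 in OGD-TIA. The part of these markers in the receptor values was not tested.

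Per 1000 FPKM of summed neuron markers, a ratio chosen after the values were seen, *Chrm1* was at 1.65 to 2.69 in CONTROL-VEH and 1.10 to 1.97 in OGD-VEH, which overlapped, and at 2.46 to 3.24 in CONTROL-TIA and 1.80 to 2.14 in OGD-TIA, which did not. The divisor itself was lower after OGD without TIA, with a group mean of 2136 against 3687. A gene that fell less than this sum, or did not change, therefore tends to rise on this ratio. The median log2 fold change of all genes tested was 0.10 in this pair. On this scale the 7 genes other than *Chrm1* had a higher mean in OGD-VEH than in CONTROL-VEH. The means were 0.235 against 0.205 for *Chrm2*, 1.42 against 1.15 for *Chrm3*, 1.35 against 1.10 for *Chrm4* and 8.04 against 5.99 for *Chrna4*, with overlapping ranges. The ranges were separate for *Chrna5* (0.794 to 0.942 in OGD-VEH, 0.407 to 0.788 in CONTROL-VEH). They were also separate for *Chrnb2* (4.53 to 6.28 in OGD-VEH, 2.99 to 4.21 in CONTROL-VEH). In FPKM both genes overlapped between these groups, with lower means in OGD-VEH. No test was run on the ratios, and the share of all genes with separate ranges of this ratio was not counted. The higher ratios therefore do not set these 7 genes apart from other genes, and a rise of receptor RNA per neuron was not tested. *Chrna7* on the same scale was at 1.44 to 2.11 in CONTROL-VEH and 2.07 to 6.32 in OGD-VEH, and at 1.44 to 2.33 in CONTROL-TIA and 1.43 to 3.32 in OGD-TIA. With culture 12 and culture 16 left out, an alternative chosen after seeing the data, *Chrm1* over both arms was at -0.86 on the log2 scale (standard error 0.20, padj = 0.0117 by limma), which keeps its padj under the limit and ends its call as a DEG, and *Chrm2* had -0.48 (padj = 0.0527 by limma).

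**Figure D4:**
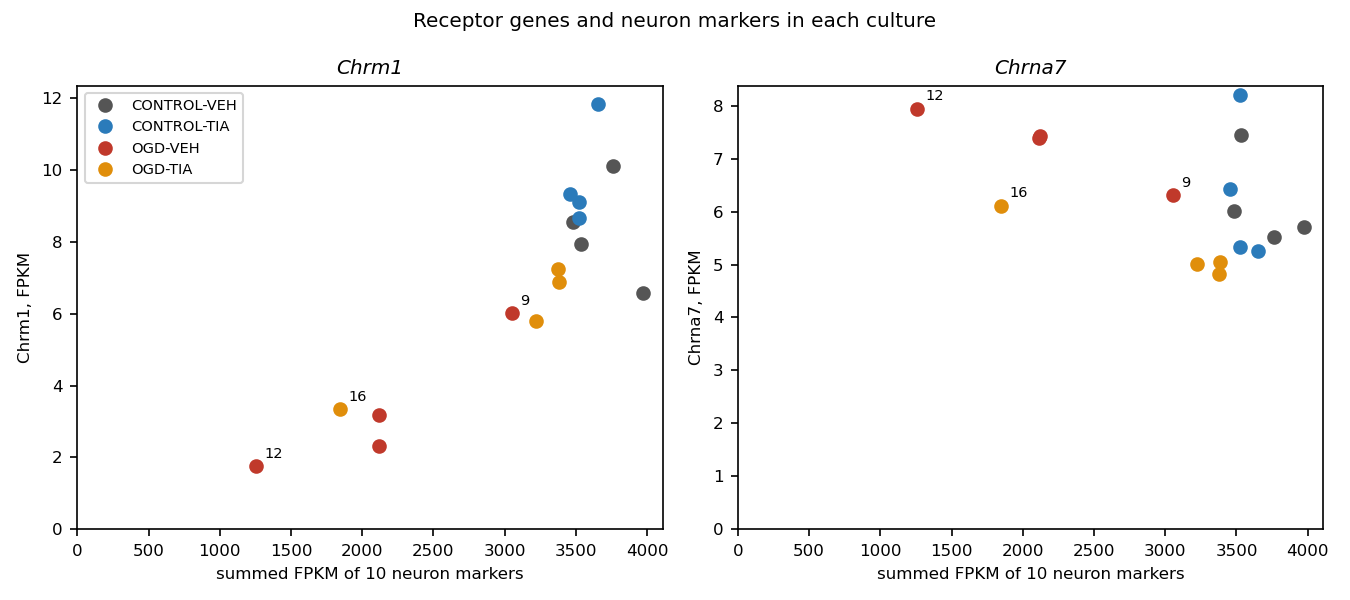
FPKM of *Chrm1* and *Chrna7* (vertical axes) against the summed FPKM of 10 neuron markers (horizontal axes) in the 16 cultures, coloured by group, with cultures 9, 12 and 16 numbered. Culture 12, with a sum of 1258, has the lowest *Chrm1* value of 1.76 FPKM and the highest OGD-VEH value of *Chrna7*, 7.95 FPKM.

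Markers of glutamatergic neurons (6 genes) summed to 293 to 335 FPKM in CONTROL-VEH, 317 to 353 in CONTROL-TIA, 80.4 to 274 in OGD-VEH and 182 to 317 in OGD-TIA, and those of GABAergic neurons (6 genes) to 423 to 765, 416 to 649, 319 to 454 and 232 to 424 FPKM. Of 5 markers of cholinergic neurons, 1 had a mean of at least 0.5 FPKM, and their sum did not exceed 1.81 FPKM in any culture. For layer 6 and subplate neurons, 5 of 6 markers were in the table, with sums of 40.6 to 51.3, 42.2 to 53.7, 27.0 to 39.6 and 34.1 to 41.9 FPKM in the same order. Oligodendrocyte lineage markers (7 genes) summed to 171 to 206, 152 to 189, 233 to 637 and 216 to 412 FPKM. The sums of the GABAergic and oligodendrocyte lists hold markers of opposite directions. Of 6 GABAergic markers, 2 were higher and 2 lower in OGD-VEH than in CONTROL-VEH with an unadjusted p under 0.05 by limma. Of 6 oligodendrocyte lineage markers tested, 4 were higher and 1 lower at this limit. Of all 16346 genes, 3299 were higher and 2430 lower. For microglia (6 genes) and for endothelial and mural cells (6 genes), 1 marker each had a mean of at least 0.5 FPKM, and the sums did not exceed 3.03 and 6.75 FPKM. Fibroblast markers (4 genes) summed to 2.74 to 16.7 FPKM, mostly from *Dcn*.

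The genes whose pattern was most like each receptor gene were found by Pearson's r of log2(FPKM + 0.1) over the 16 cultures among 12500 protein-coding genes averaging 1 FPKM or more. These coefficients are descriptions over libraries that share group and depth. For *Chrm1* they were *Rflnb* (r = 0.987), *Adgrl1* (0.986) and *Nos1* (0.986), with 0.967, 0.962 and 0.950 after the group means were removed. For *Chrnb2* they were *Exoc6* (0.986), *Kif3b* (0.985) and *Lonrf2* (0.985). *Chrm2* was most like *Tmem178* (0.948), *Rxrg* (0.924) and *Pcp4l1* (0.920), *Chrm3* like *Brsk1* (0.942), *Pcdha12* (0.938) and *Rusc2* (0.938), and *Chrm4* like *Pld3* (0.916), *Tenm2* (0.914) and *Rfng* (0.906). *Chrna5* was most like *Kcns1* (0.937), *Rsph4a* (0.926) and *Adcyap1* (0.922). The lowest such coefficients were those of *Chrna4*, with *Dnajc16* (0.893), *Klk8* (0.856) and *Nectin1* (0.843), and of *Chrna7*, with *Nsun4* (0.847), *Galk1* (0.845) and *Rpl21* (0.840).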

How the data were processed

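Stranded mRNA libraries of 16 cultures were sequenced with 50-base single-end reads. Per the labels and methods, the authors mapped them with STAR to GRCm38 (Ensembl release 92) and estimated isoform expression with eXpress (versions not given in the sources used here). The deposited values are isoform FPKM after TMM scaling, a unit read from the table's name. Of 135276 lines, 74 without an identifier were left out. Annotation came from GENCODE M21, which held 99.82% of the isoforms. Isoform FPKM were summed per symbol, 0.1 was added and the log2 taken. Genes that averaged 0.5 FPKM or more in a comparison's cultures entered limma (version 3.58.1, under R 4.3.3), fitted with a trended empirical Bayes step, with Benjamini-Hochberg adjustment over all genes tested. DESeq2, which the authors used, takes counts and could not be applied to these values. Depth was estimated from the FPKM of 1 read in 15108 single-isoform genes. It is an estimate, so no counting intervals are given. The procedure was tested on simulated data with the spread of the CONTROL cultures and changes larger than those of the receptor genes. That test does not show how the procedure performs with the spread of the OGD cultures or on smaller changes. Replicates are biological replicates per the methods, and how cultures were spread over preparations was not given.

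The receptor genes, gene lists, markers and motifs were chosen with earlier results of these data known. The text names the 8 genes, up to 3 genes per list with the smallest p between OGD-VEH and CONTROL-VEH, *Chat*, *Slc18a3*, *Slc5a7* and *Ache*, and the 3 most similar genes of each. A result of the channel list that this rule would name, with the counts of that list, is not reported here. The weighting by length, highest isoform, scaling, filter, pseudocount, weights, robust fit, joint fit and left-out cultures were tried as alternatives. Summaries were made in Python 3.11.15 (pandas 2.3.3).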

Additional observations from a re-analysis of the deposited data

Results flagged for a closer look

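In groups of 4 cultures, the gap between the most extreme culture and its neighbour was compared with the range of the group by Dixon's criterion at 95%. Of 32 sets (8 genes in 4 groups), 3 exceeded it, and chance exceeds it in about 1 of 20 sets. *Chrm2* was at 0.579 FPKM in OGD-VEH culture 9, above the other 3 OGD-VEH cultures. *Chrm4* was at 2.50 FPKM in OGD-TIA culture 16, below the other 3 OGD-TIA cultures. *Chrna4* was at 7.46 FPKM in OGD-VEH culture 12, below the other 3 OGD-VEH cultures, and in that culture its 519-nt isoform was at 0.

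No interaction of OGD and TIA passed the adjusted limit for a receptor gene. For *Chrna7* every OGD-VEH culture lay above the CONTROL-VEH mean and every OGD-TIA culture below the CONTROL-TIA mean. The interaction was -0.48 on the log2 scale (standard error 0.21, unadjusted p = 0.0405, padj = 0.722 by limma), so the difference did not pass the adjusted test.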

How the results depend on the processing

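Alternatives were run for the 8 receptor genes in 6 comparisons, 990 gene and setting combinations in all, of which 924 kept direction and side of the padj limit, 10 lost and 13 gained a padj under the limit, and 43 changed sign. The number of receptor genes called after OGD without TIA was 1, and 0 with no filter on low values and with the isoform of the highest mean alone, where calls over all genes went from 668 to 36 and 19 and the *Chrm1* log2 fold change was -1.43 and -1.57. Over both arms it was 1, and 0 with a pseudocount of 1, with array quality weights and, chosen after seeing the data, with OGD-VEH culture 12 and OGD-TIA culture 16 left out. Between OGD-TIA and OGD-VEH it was 0, and 1 with array quality weights. Leaving out each culture gave 0 to 1 calls in the OGD-VEH pair and 0 to 1 over both arms. The causes were not tested. *Chrm2* had no value at a minimum mean of 2 FPKM.

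Sign changes on the log2 scale were as follows. With the highest isoform alone, *Chrnb2* was 0.063 in the OGD-VEH pair, *Chrm2* was -0.00676 in the CONTROL pair, and the interaction was 0.12 for *Chrna4*, -0.00893 for *Chrna5* and -0.18 for *Chrnb2*. Weighted by length, *Chrm2* was -0.00148 in the CONTROL pair, *Chrna7* 0.00021 over both arms and the interaction of *Chrna4* 0.11. With array quality weights, *Chrm3* was 0.042 in the OGD-TIA against CONTROL-TIA pair, *Chrna7* -0.0365 in the CONTROL pair and *Chrna4* -0.0208 in the OGD pair. With cultures 12 and 16 left out, *Chrna4* was -0.053 in the OGD pair and the interaction of *Chrna5* -0.10. Leaving out single cultures gave -0.13 to 0.074 for *Chrm3* with TIA, and, in the CONTROL pair, -0.061 to 0.15 for *Chrm2*, -0.062 to 0.36 for *Chrna4*, -0.12 to 0.11 for *Chrna7* and -0.0144 to 0.11 for *Chrnb2*. It gave -0.27 to 0.31 for *Chrna4* in the OGD pair, -0.044 to 0.077 for *Chrna7* over both arms, and interactions of -0.44 to 0.15 for *Chrna4* and -0.19 to 0.25 for *Chrna5*. None of these results had a padj under the limit in the reported fit.

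No paired analysis was made. Each culture number, from 1 to 16, occurs in a single group, and the labels do not show whether cultures of different groups shared a preparation.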
